A study of Mus musculus with 14 samples.

Results

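Cytokine receptors let a blood progenitor sense the growth factors of its lineage. The data described here are the counts of 9 receptor genes in single mouse blood progenitors: Epor, Il1rl1, Csf1r, Csf3r, Csf2ra, Csf2rb, Il3ra, Il2rg and Tek, which the tables list in capitals (EPOR, IL1RL1, CSF1R, CSF3R, CSF2RA, CSF2RB, IL3RA, IL2RG and TEK). The genes were chosen by name from the 22842 genes that both deposited tables share, and none of them was a marker used to place cells in lineages. All 9 were present in both tables.

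The study traced endogenous adult hematopoietic stem cells (HSC) with an inducible reporter, and reporter-positive (Tom+), lineage-negative single cells were sequenced. Day 3 is represented by mouse m4539 with 2 plates and day 10 by mouse m4533 with 3 plates. Day 17 has 3 mice, of which m4528 gave 4 plates and m605 and m606 gave 2 each, and 1 more plate held cells of the last pair together. The labels name neither the driver of the recombinase, the strain, the age of the mice nor the event from which days were counted. Day 3 and day 10 have 1 mouse each and therefore no replicate error, and the mouse is the replicate throughout. Lineage-negative sorting removes most mature blood cells, so the lineages below are progenitors of each branch.

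Of 9357 barcodes, 1010 had at least 500 detected genes and at least 10000 counts and were kept as cells. Mice m4539, m4533, m4528, m605 and m606 gave 190, 107, 288, 143 and 189 cells, and the mixed plate gave 93. The median cell of a mouse held between 118001 and 286917 counts, with the highest median in m4533. Mouse m4528 stood apart in sex-linked genes, with 131 CPM (counts scaled to a common library total) of Eif2s3y against at most 0.200 CPM in each other mouse. The 96 well barcodes recur on more than 1 plate, since each plate uses the same set, and the plate name keeps the cells apart.

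Lineages were set by marker genes, each held at more than 10 counts, with at least 3 markers of the lineage needed; a cell went to the lineage with the highest share of its markers, and ties stayed ungated. This placed 132 cells in an erythroid gate, 109 in a megakaryocyte gate, 105 in a neutrophil gate, 94 in a monocyte or dendritic gate, 28 in a basophil or mast cell gate and 426 in an HSC gate. A further 36 cells in no gate held both Cd34 and Mpo (early granulocyte-monocyte), 80 stayed ungated, and the lymphoid gate was empty. Mpo above 10 counts was also found in 44.4% of HSC-gated cells and 99.2% of erythroid-gated cells, so the early granulocyte-monocyte gate is a weak one and is only described. The gates differ in depth, with a median of 219900 counts per cell in the erythroid gate, 157621 in the megakaryocyte gate, 268105 in the neutrophil gate, 209489 in the monocyte or dendritic gate, 140934 in the basophil or mast cell gate and 118284 in the HSC gate.

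Receptors of this kind act at the cell surface, where ligand binding brings receptor chains together and starts signalling. Signalling runs through built-in tyrosine kinase domains for Csf1r and Tek, and through Janus kinases for the other members apart from Il1rl1. Several functional receptors are made of a private chain that binds 1 ligand and a chain shared with other receptors, so a cell needs both transcripts to build them. Some, such as the receptors for erythropoietin, macrophage colony-stimulating factor and granulocyte colony-stimulating factor, are textbook marks of a single lineage.

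Most values of these genes above 0 were low, while most of their counts lay in higher values. Of 2124 member values above 0, 60.1% lay between 1 and 10 counts but held 4.91% of all member counts, and the median of the values above 10 was 40. A cell was therefore said to hold a receptor when it had more than 10 counts of it. For some members this cut does not fall in a gap. Csf3r had 15 cells with 8 to 10 counts and 12 with 11 to 13, and Csf2ra had 16 and 11. Fewer cells lay near the cut in others, such as Tek with 4 and 2. No label states a use of molecular identifiers, so counts were taken as reads, and the limits given for a count of 0 reflect counting error alone. The threshold left few or no positive cells in gates that should lack a gene. Csf1r, a monocyte gene, was held by 0 of 426 HSC-gated cells (up to 0.704% allowed by a count of 0) and 0 of 109 megakaryocyte-gated cells, and Epor by 0 of 94 monocyte or dendritic cells. Other gates were not free of such cells. Csf1r was held by 2 of 132 erythroid-gated cells (1.52%) and Epor by 4 of 105 neutrophil-gated cells (3.81%). Since depth differs between gates, each share is also given after thinning all cells with at least 50000 counts (955 cells) to 50000 counts, with a threshold of more than 2 counts. With the threshold of 10 kept after thinning, 37.1% of all monocyte or dendritic cells held Csf1r and 1.36% ± 2.36 of neutrophil cells held Csf3r (SD, n = 3 mice). Of the shallower cells, 5, 2, 5, 24 and 12 of mice m4539, m4533, m4528, m605 and m606 and 7 of the mixed plate were left out.

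**Figure D1:**
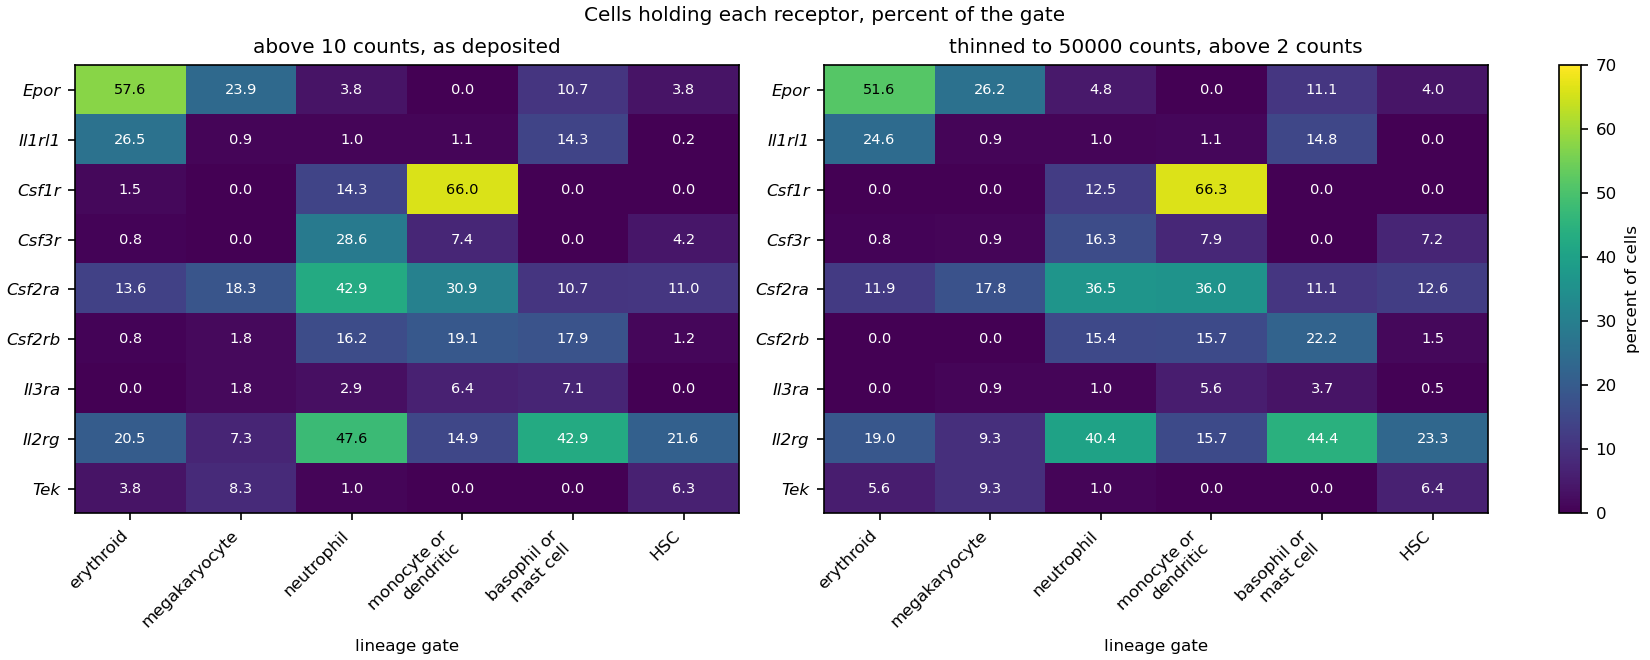
Percent of the cells of each lineage gate (columns) that held each receptor (rows), as deposited with more than 10 counts (left) and after thinning to 50000 counts with more than 2 counts (right); all mice are pooled. Csf1r stands out in the monocyte or dendritic gate (66.0% and 66.3%) and Epor in the erythroid gate (57.6% and 51.6%).

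Epor encodes the receptor for erythropoietin, the hormone that sustains red cell progenitors. It lies on the minus strand of chr9:21958897-21963506 (GRCm38, GENCODE vM21), with no overlapping gene. Epor was held by 76 of 132 erythroid-gated cells (57.6%), 26 of 109 megakaryocyte-gated cells (23.9%) and 16 of 426 HSC-gated cells (3.76%). The HSC share was no higher than that of the neutrophil gate (4 of 105 cells, 3.81%). The erythroid level was 98.7, 96.1 and 129 CPM in day 17 mice m4528, m605 and m606, against 18.5, 1.73 and 6.40 CPM in the HSC gate of the same mice. The HSC level was 38.5 CPM in m4539 at day 3 and 28.8 CPM in m4533 at day 10. All 3 erythroid values were above all 5 HSC values. In edgeR's quasi-likelihood fit over all lineages, with the mouse as a block, Epor was 3.61 ± 0.95 (SE) higher on the log2 scale in erythroid cells than in HSC (adjusted p = 0.0264). Across all 15118 genes tested, 5.6% were called higher and 11.7% were called in either direction in this comparison. The call was lost without m4528 (adjusted p = 0.126), without m605 (0.0614) or without m606 (0.285), while the log2 difference stayed between 3.17 and 4.10 in these 3 edgeR fits.

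In the megakaryocyte gate Epor reached 45.1 CPM in m4533, 125 in m4528, 106 in m605 and 57.6 in m606. A single cell carried 99.1% of the m605 value, and in that mouse 1 of 12 megakaryocyte-gated cells held the gene. Each of the 4 values was above the HSC value of its mouse, and the log2 difference was 3.10 ± 0.86 (SE), with an adjusted p of 0.0651 (edgeR), which did not pass. Erythroid and megakaryocyte levels of Epor overlapped between mice (log2 difference 0.50 ± 0.79, adjusted p = 0.834, edgeR), and its share of cells was 59.3% ± 6.1 in erythroid cells (SD, n = 3 mice) and 21.1% ± 10.7 in megakaryocyte cells (SD, n = 4 mice). After thinning, these shares were 49.5% ± 13.4 and 21.9% ± 10.7 above 2 counts, but 20.1% ± 8.6 and 15.5% ± 8.4 with the threshold of 10 kept. Megakaryocyte cells with Epor held as many erythroid markers as those without it, 1.54 of 10 on average in both. The basophil or mast cell gate followed at 68.7 and 23.7 CPM in m4528 and m606, and the neutrophil and monocyte or dendritic gates were at or under 11.4 CPM in every mouse.

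Within the erythroid gate, cells with Epor were deeper than cells without it, with median totals of 300454 and 140984 counts. The proliferation gene Mki67 was held by 85.5% of cells with Epor and 46.4% of those without, the globin gene Hba-a1, itself a marker of this gate, by 60.5% and 32.1%, and Gata2, a transcription factor of early progenitors, by 34.2% and 42.9%. After thinning, Mki67 was held by 76.9% of Epor cells and 52.5% of the others, Hba-a1 by 53.8% and 37.7%, and Gata2 by 26.2% and 39.3%. The directions differed between mice: in m4528 the thinned share of Mki67 was 37.5% with Epor and 38.5% without, and in m605 that of Gata2 was 16.7% with Epor and 14.3% without. These values describe cells of 3 mice and were not tested.

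The start region of Epor is shown because it holds the letters AGATAA (or TTATCT, the same on the other strand), the core that GATA factors are known to bind. Il1rl1, also called higher in erythroid cells than in HSC, holds these letters, and so does Tek, which was not called. The windows shown were picked for holding a motif, and a link between motif and level was not tested. The windows run from 250 bases before to 50 bases after each gene's start in RefSeq (GRCm38.p6). The capitals mark AGATAA or TTATCT and, for the myeloid receptors, GAGGAA or TTCCTC, the core that PU.1 and other ETS factors are known to bind. Of all 32851 windows of this length, 11.2% hold the first motif and 28.3% the second. The Epor window lies on the minus strand of chr9:21963527-21963826.
Epor: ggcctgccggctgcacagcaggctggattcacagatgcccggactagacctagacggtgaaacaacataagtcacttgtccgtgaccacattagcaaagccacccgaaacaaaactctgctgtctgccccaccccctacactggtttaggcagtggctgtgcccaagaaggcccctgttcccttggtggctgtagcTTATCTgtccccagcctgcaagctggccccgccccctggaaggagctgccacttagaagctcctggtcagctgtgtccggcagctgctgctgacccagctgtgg

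Il1rl1 (chr1:40429570-40465415, plus strand, no overlapping gene) encodes ST2, the receptor for interleukin-33, best known on mast cells, basophils and subsets of T cells. Here it was held by 35 of 132 erythroid-gated cells (26.5%), and these 35 cells were 81.4% of all 43 cells that held it. Only 4 of 28 basophil or mast cells (14.3%) held it, and no other gate had more than 1 cell. The erythroid level was 56.1, 13.5 and 41.9 CPM in m4528, m605 and m606, against 0.0918, 0 and 0 CPM in the HSC gate of these mice. In the HSC gate of m4539 the gene was at 0 and in that of m4533 at 0.988 CPM, with 85.7% of its 21 counts in 1 cell. The erythroid and HSC values did not overlap. The log2 difference was 8.52 ± 2.18 (SE, adjusted p = 0.0223, edgeR), whose size depends on the prior count because 3 of the 5 HSC sums are at 0. The call was lost without m4528 (adjusted p = 0.163, edgeR), without m605 (0.132) and when 4 instead of 3 markers were asked of a gate (0.0530).

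The basophil or mast cell level of Il1rl1 was 12.2 and 24.3 CPM in m4528 and m606, within or below the erythroid range. Erythroid over megakaryocyte cells, the log2 difference was 6.06 ± 1.75, which did not pass (adjusted p = 0.0743, edgeR). After thinning, 23.4% ± 5.3 of erythroid cells held Il1rl1 above 2 counts (SD, n = 3 mice) and 5.62% ± 3.56 above 10, against 25.0% ± 9.7 as deposited. Klf1, an erythroid transcription factor and a marker of this gate, was held by 94.3% of erythroid cells with Il1rl1 and 93.8% of those without. Cpa3, a mast cell protease, was held by 5.71% of erythroid cells with Il1rl1 and 7.22% of those without. Any of the 9 basophil or mast cell markers in the tables was held by 62.9% of erythroid cells with Il1rl1 and 39.2% of those without, at median depths of 329931 and 209619 counts, and the part of depth in this was not tested.

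RefSeq gives Il1rl1 a pair of starts, a distal one (window chr1:40429320-40429619) and a proximal one (window chr1:40439379-40439678), both on the plus strand. Both windows hold AGATAA or TTATCT, and the distal one also holds GAGGAA after the start. The libraries read the 3′ end of transcripts, so the counts do not say which start was used.
Il1rl1 distal: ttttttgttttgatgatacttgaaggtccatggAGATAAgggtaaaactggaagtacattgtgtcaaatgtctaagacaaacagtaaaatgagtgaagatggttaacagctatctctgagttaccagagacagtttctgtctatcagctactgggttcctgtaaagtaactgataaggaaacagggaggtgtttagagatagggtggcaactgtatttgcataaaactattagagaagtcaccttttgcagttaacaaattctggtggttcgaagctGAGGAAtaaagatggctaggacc
Il1rl1 proximal: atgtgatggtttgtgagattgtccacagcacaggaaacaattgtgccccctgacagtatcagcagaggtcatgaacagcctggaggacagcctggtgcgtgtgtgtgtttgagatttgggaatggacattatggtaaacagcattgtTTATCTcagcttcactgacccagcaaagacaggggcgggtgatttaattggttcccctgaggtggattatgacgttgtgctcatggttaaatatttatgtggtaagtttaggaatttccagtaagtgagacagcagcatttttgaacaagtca

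**Figure D2:**
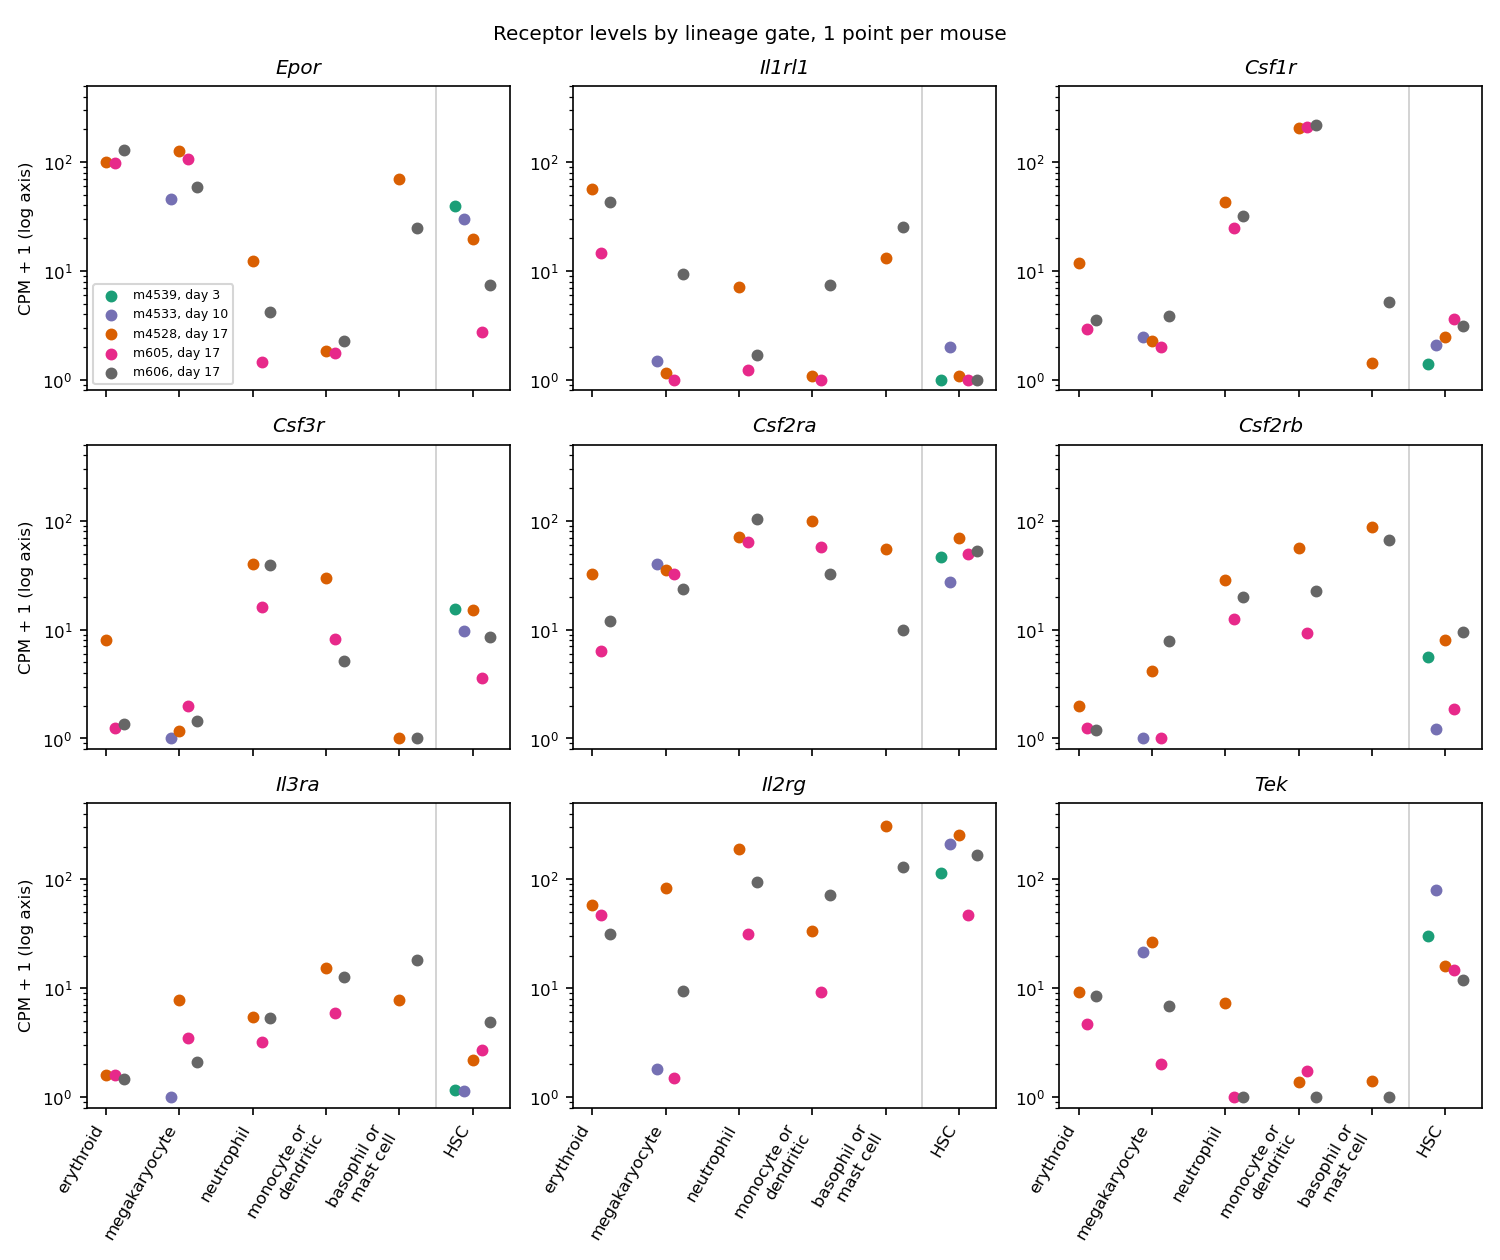
Level of each receptor as CPM + 1 (log axis) in the summed cells of each mouse and lineage gate with at least 10 cells, with the HSC gate at the right of each panel; 1 point is 1 mouse, coloured by mouse and day. Csf1r lies between 204 and 219 CPM in the monocyte or dendritic gate of all 3 day 17 mice and at most at 2.60 CPM in the HSC gate.

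Csf1r (chr18:61100598-61132149, plus strand) encodes the receptor for macrophage colony-stimulating factor, which drives monocytes and macrophages. Hmgxb3 overlaps it on the opposite strand and Mir6983 on the same strand, and no label says whether counting used strand, so reads of the overlapping genes may not be told apart. Csf1r was held by 62 of 94 monocyte or dendritic cells (66.0%), 15 of 105 neutrophil-gated cells (14.3%) and 0 of 426 HSC-gated cells. The monocyte or dendritic level was 204, 208 and 219 CPM in m4528, m605 and m606, against 1.47, 2.60 and 2.13 CPM in the HSC gate of the same mice. The neutrophil level was 42.2, 23.9 and 31.1 CPM in these mice. The monocyte, neutrophil and HSC values formed 3 ranges that did not overlap.

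Csf1r was 7.04 ± 0.84 (SE) higher on the log2 scale in monocyte or dendritic cells than in HSC (adjusted p = 0.000294, edgeR; 4.78% of all genes higher, 8.73% called in either direction). This call held in all 15 alternative fits, with log2 differences of 6.86 to 7.43. In neutrophil-gated cells it was 4.25 ± 0.78 higher than in HSC (adjusted p = 0.00617, edgeR; 3.69% of all genes higher, 5.89% in either direction), and without m606 this call was lost (adjusted p = 0.0869). Monocyte or dendritic cells exceeded neutrophil cells by 2.79 ± 0.75, which did not pass (adjusted p = 0.208, edgeR; 0.403% of all genes called). Neutrophil-gated cells with Csf1r also held more monocyte or dendritic markers than those without, 2.67 against 1.10 of 10 on average, at median depths of 320924 and 266878 counts. Of the 105 neutrophil-gated cells, 45 lay in the Leiden cluster named neutrophil, 29 in that of basophil or mast cells, 15 in monocyte or dendritic clusters and 12 in unnamed clusters. The part of these cells in the Csf1r call was not tested. Csf1r was held by 6 of 36 early granulocyte-monocyte cells.

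Not every monocyte or dendritic cell held Csf1r. The 62 cells with it held F13a1, a monocyte gene, in 93.5% of cases and Siglech, a plasmacytoid dendritic cell gene, in 3.23%. The 32 cells without it held F13a1 in 46.9% and Siglech in 31.3%. The directions were the same in each of the 3 day 17 mice, and after thinning the shares were 89.8% with and 63.3% without Csf1r for F13a1, and 5.08% with and 20% without for Siglech. F13a1 and Siglech are themselves among the markers of this gate, and the split was not tested. Ighm, an immunoglobulin gene, was held by 95.7% of monocyte or dendritic cells at 1335 CPM, while the other marker of mature B or plasma cells in the tables was at 0, and its part in these values was not tested.

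Csf3r (chr4:126024550-126044440, plus strand, no overlapping gene) encodes the receptor for granulocyte colony-stimulating factor, the main growth factor of neutrophils. It was held by 30 of 105 neutrophil-gated cells (28.6%), 7 of 94 monocyte or dendritic cells (7.45%), 18 of 426 HSC-gated cells (4.23%) and 0 of 109 megakaryocyte-gated cells. The neutrophil level was 39.4, 15.2 and 38.5 CPM in m4528, m605 and m606, against 14, 2.60 and 7.47 CPM in the HSC gate of the same mice. Each neutrophil value was above its own mouse's HSC value, and all 3 were above the HSC values of 14.3 CPM in m4539 and 8.80 CPM in m4533. The log2 difference was 1.89 ± 1.31 and did not pass (adjusted p = 0.460, edgeR). Csf3r had 0 counts in the 28 basophil or mast cells and 12 counts in the 109 megakaryocyte-gated cells. Megakaryocyte cells were 4.42 ± 1.36 lower than HSC on the log2 scale, which did not pass (adjusted p = 0.0976, edgeR). The share is sensitive to depth: after thinning, 15.3% ± 8.5 of neutrophil cells and 5.48% ± 4.03 of HSC held Csf3r (SD, n = 3 and n = 5 mice), against 29.2% ± 11.6 and 2.67% ± 2.68 as deposited. HSC-gated cells with Csf3r did not hold more neutrophil markers than those without, with 0.833 against 0.801 of 10 on average. The window of Csf3r is shown with that of Csf2ra because both hold GAGGAA, Csf2ra as 2 adjoining copies; it lies on the plus strand of chr4:126024409-126024708, and that of Csf2ra on the minus strand of chr19:61228369-61228668.
Csf3r: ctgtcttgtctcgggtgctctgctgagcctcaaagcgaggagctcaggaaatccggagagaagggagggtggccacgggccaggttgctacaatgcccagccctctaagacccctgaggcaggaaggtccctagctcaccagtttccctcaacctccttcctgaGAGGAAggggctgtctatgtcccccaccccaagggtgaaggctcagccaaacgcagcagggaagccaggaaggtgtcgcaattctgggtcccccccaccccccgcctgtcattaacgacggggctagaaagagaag
Csf2ra: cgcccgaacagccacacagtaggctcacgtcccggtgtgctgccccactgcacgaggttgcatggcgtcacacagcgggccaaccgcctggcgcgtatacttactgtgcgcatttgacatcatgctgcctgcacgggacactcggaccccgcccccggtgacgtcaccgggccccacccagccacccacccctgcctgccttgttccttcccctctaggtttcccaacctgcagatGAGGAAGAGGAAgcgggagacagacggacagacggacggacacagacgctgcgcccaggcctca

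The receptors for granulocyte-macrophage colony-stimulating factor and interleukin-3 share a signalling chain, Csf2rb (chr15:78325752-78353847, plus strand), and differ in their ligand-binding chains, Csf2ra (chr19:61223957-61228429, minus strand) and Il3ra (chr14:14346275-14356011, plus strand). Csf2ra was the broadest of the 3. It was held by 42.9% of neutrophil cells, 30.9% of monocyte or dendritic cells, 18.3% of megakaryocyte cells, 13.6% of erythroid cells and 11% of HSC-gated cells. Its level was 70.3, 62.6 and 102 CPM in the neutrophil gate of m4528, m605 and m606, against 67.8, 48.5 and 51.6 CPM in the HSC gate of these mice. Each neutrophil value was above its own mouse's HSC value (log2 difference 0.85 ± 0.60, adjusted p = 0.466, edgeR). The neutrophil and HSC ranges overlapped, and Csf2ra passed in none of the 8 lineage comparisons. The monocyte or dendritic level was 97.6, 56.7 and 31.4 CPM, and spanned the HSC range. The erythroid level was 31.5, 5.37 and 11.1 CPM, below the HSC value of each mouse (log2 difference -1.84 ± 0.64, adjusted p = 0.0796, edgeR), which did not pass.

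Csf2rb was low outside the myeloid gates. It was held by 5 of 28 basophil or mast cells, 18 of 94 monocyte or dendritic cells, 17 of 105 neutrophil cells, 6 of 36 early granulocyte-monocyte cells and 5 of 426 HSC-gated cells. Its level was 86.0 and 65.9 CPM in basophil or mast cells of m4528 and m606, against 6.98 and 8.54 CPM in the HSC gate of these mice, and 1 cell carried 97.1% of the m4528 basophil value. It was 55.1, 8.32 and 21.5 CPM in monocyte or dendritic cells and 27.6, 11.4 and 19.1 CPM in neutrophil cells of m4528, m605 and m606, and these ranges overlapped. None of these differences from HSC passed, with adjusted p of 0.119, 0.163 and 0.251 in the same order (edgeR). The erythroid level was at most 0.970 CPM, below the HSC value of each of the 3 mice, with a log2 difference of -3.41 ± 1.05 that just missed the threshold (adjusted p = 0.0526, edgeR). The nearby copy Csf2rb2 had 83.6 CPM in basophil or mast cells and at most 5.78 CPM in the other gates named here, and how reads were split between the copies is not known.

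Il3ra was the rarest member, held by 15 cells in all. Of these, 6 were monocyte or dendritic, 3 neutrophil, 2 basophil or mast and 2 megakaryocyte cells, and none was in the erythroid or HSC gate. Its level was 14.3, 4.92 and 11.7 CPM in monocyte or dendritic cells of m4528, m605 and m606, against 1.19, 1.73 and 3.91 CPM in their HSC. These ranges did not overlap, but the log2 difference of 1.99 ± 0.96 did not pass (adjusted p = 0.230, edgeR). An antisense gene, Gm48860, overlaps Il3ra. Of its 15 cells 7 lay just above the threshold, between 11 and 13 counts, and 6 further cells lay just below it, between 8 and 10.

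Il2rg (chrX:101264378-101268255, minus strand) encodes the common gamma chain, shared by several interleukin receptors and best known in lymphocytes. It was the most widely held member, in 224 of 1010 cells, while the lymphoid gate was empty. It was held by 47.6% of neutrophil cells, 42.9% of basophil or mast cells, 20.5% of erythroid cells, 14.9% of monocyte or dendritic cells, 7.34% of megakaryocyte cells and 21.6% of HSC-gated cells. Its HSC level varied widely, at 115 CPM in m4539, 211 in m4533, 257 in m4528, 45.9 in m605 and 168 in m606. Megakaryocyte levels were 0.798 CPM in m4533, 82.8 in m4528, 0.503 in m605 and 8.54 in m606, and 1 cell carried 58.5% of the m4528 value. Each was below the HSC value of its mouse, and only the m4528 value overlapped the HSC range. The log2 difference was -3.95 ± 1.06 and did not pass (adjusted p = 0.0587, edgeR; 3.62% of all genes were called, and no member).

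The neutrophil level of Il2rg was 190, 30.8 and 94.0 CPM in m4528, m605 and m606, against HSC levels that were higher in each of these mice, although the share of cells was larger in the neutrophil gate. No order between these gates is therefore read from the shares. After thinning, 39.4% ± 15.2 of neutrophil cells and 24.7% ± 7.2 of HSC held Il2rg (SD, n = 3 and n = 5 mice). Gm20489, a gene on the same strand, overlaps Il2rg, and reads of the pair cannot be told apart.

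Tek (chr4:94739289-94874976, plus strand, no overlapping gene) encodes Tie2, the receptor for angiopoietin-1, known on endothelium and on quiescent stem cells. Of the 48 cells that held it, 27 were in the HSC gate (6.34% of 426), 9 in the megakaryocyte gate (8.26% of 109) and 5 in the erythroid gate, and none was a monocyte or dendritic or a basophil or mast cell. Its HSC level was 29.0 CPM at day 3 (m4539), 78.1 CPM at day 10 (m4533) and 15, 13.9 and 11 CPM at day 17 (m4528, m605 and m606). In the megakaryocyte gate it was 20.5 CPM in m4533, 25.7 in m4528, 1.01 in m605 and 5.91 in m606, which overlapped the HSC range. Monocyte or dendritic cells had at most 0.757 CPM, below every HSC value, with a log2 difference of -5.47 ± 1.67 that did not pass (adjusted p = 0.0598, edgeR).

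Endothelial markers were not found with Tek in the HSC and megakaryocyte gates. None of the 27 HSC-gated cells with Tek held any of 7 endothelial or stromal markers above 10 counts, against 11 of 399 without Tek. None of the 9 megakaryocyte cells with Tek did, against 8 of 100 without. At such low shares, 27 and 9 cells are too few to tell cells with Tek from those without. The 5 erythroid-gated cells with Tek are not covered by this count. The summed level of that marker list was 21.8 CPM in the HSC gate and 11.4 CPM in the megakaryocyte gate. The window of Tek (plus strand of chr4:94739039-94739338) is shown because it too holds AGATAA, after the start. Over the 8 windows of 7 members that were read, 4 held the first motif (both windows of Il1rl1 among them) and 3 the second, and those of Il2rg and Il3ra held neither.
Tek: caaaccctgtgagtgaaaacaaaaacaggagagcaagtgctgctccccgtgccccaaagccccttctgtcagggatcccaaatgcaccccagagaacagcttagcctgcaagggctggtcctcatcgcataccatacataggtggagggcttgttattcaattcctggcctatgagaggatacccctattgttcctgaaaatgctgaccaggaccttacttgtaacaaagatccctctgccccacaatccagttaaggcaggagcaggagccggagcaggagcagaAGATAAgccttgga

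Over the 9 members together, the lineage comparisons called few. Relative to HSC, 2 members were higher in erythroid cells (Epor and Il1rl1), 1 in neutrophil cells (Csf1r), 1 in monocyte or dendritic cells (Csf1r), 0 in megakaryocyte cells and 0 in basophil or mast cells (2.09% of all genes called), and no member was called lower. The median member was -1.61 on the log2 scale in erythroid cells against HSC, where the median of all 15118 genes was -0.03. It was 0.85 in neutrophil cells and 0.35 in monocyte or dendritic cells against HSC, where the medians of all genes were -0.03 and -0.05. No member was called for erythroid against megakaryocyte (4.33% of all genes called), monocyte or dendritic against neutrophil, or basophil or mast cell against neutrophil cells (0.225% of all genes called). In the 5 comparisons with no call, edgeR gave an unadjusted p under 0.05 for 3 members (megakaryocyte against HSC), 4 (basophil or mast cell against HSC), 4 (erythroid against megakaryocyte), 1 (monocyte or dendritic against neutrophil) and 4 (basophil or mast cell against neutrophil). The share of all genes under that unadjusted level is not given here, so no excess of members is read from these counts. DESeq2 called 3, 4, 2, 1 and 3 members in the same order. Of all 15118 genes it called 1760, 1882, 1632, 460 and 777.

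Of 27 measured other cytokine receptors, 10 fell and 0 rose in erythroid cells against HSC, where 6.07% of all genes were lower and 11.7% called in either direction. Il6st, the shared chain of interleukin-6 type receptors, fell by 6.39 ± 1.22 (SE) on the log2 scale, Il4ra by 6.44 ± 1.61 and Il21r by 6.60 ± 1.47 (edgeR, adjusted p of 0.00449, 0.01995 and 0.0109 for Il6st, Il4ra and Il21r). Against megakaryocyte cells, 5 of the 27 fell in erythroid cells (2.54% of all genes lower), among them Ghr, Tie1 and Il6st. In monocyte or dendritic cells 4 fell against HSC (among them Tie1, a relative of Tek, Ghr, and Kit, the stem cell factor receptor) and 1 rose (Ifnar2, a chain of the type I interferon receptor, outside the rule for named genes), and in neutrophil cells 1 fell. Of all genes, 3.96% were lower and 4.78% higher in monocyte or dendritic cells, and 2.2% lower in neutrophil cells. None of the 27 was called in megakaryocyte or in basophil or mast cells against HSC.

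Among 28 signalling genes, 8 fell in erythroid cells against HSC and 0 rose (6.07% of all genes lower). Socs2, a feedback inhibitor of cytokine signalling, fell by 7.09 ± 0.81 on the log2 scale, and Stat4, a signal transducer, by 6.38 ± 0.63 (edgeR, adjusted p = 0.000198 and 6.29e-05). Cish, another feedback inhibitor, and Pim1, a kinase induced by cytokines, fell by 4.81 ± 1.36 and 3.94 ± 0.70. Socs2 was also lower than HSC in neutrophil cells (fell by 7.18 ± 0.83), monocyte or dendritic cells (fell by 7.96 ± 0.88) and basophil or mast cells, but was not called in megakaryocyte cells, where Jak1 and Ptpn6 fell. In monocyte or dendritic cells 6 fell and 2 rose (3.96% of all genes lower, 4.78% higher). Of 7 measured ligands, Angpt1, the ligand of Tek, fell by 4.01 ± 0.72 in erythroid cells, by 3.10 ± 0.71 in neutrophil cells and by 6.30 ± 0.82 in monocyte or dendritic cells against HSC (edgeR, adjusted p = 0.00308, 0.0220 and 0.000514). It was not called in megakaryocyte cells, where Il4 and Il15 fell. The rest of each list did not pass.

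Among all kept cells, the share with each receptor followed the day in some members. Csf1r was held by 0.526% of cells at day 3, 1.87% at day 10 and 11.8%, 10.5% and 13.8% in the 3 day 17 mice. Epor was held by 5.26% at day 3, 7.48% at day 10 and 13.9%, 18.2% and 20.1% at day 17. Tek ran the other way, with 5.79% at day 3, 11.2% at day 10 and 3.82%, 1.40% and 2.12% at day 17. In these 3 members and in Csf2rb and Il1rl1 the day 17 mice did not overlap the earlier mice, 4 members being higher and Tek lower. Of all 11377 genes held by at least 10 cells, 43.9% were higher in this sense and 6.97% lower, so the 4 of 9 members (44.4%) that were higher lie near the share of all genes. The exact permutation test of 3 against 2 mice cannot go below p = 0.1 (two-sided), which Epor, Csf1r and Tek reached (0.3 adjusted over the 9 members). Il2rg had 18.9% at day 3, 15.9% at day 10 and 28.8%, 15.4% and 26.5% at day 17, and its days overlapped, as did those of Csf2ra, Csf3r and Il3ra.

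**Figure D3:**
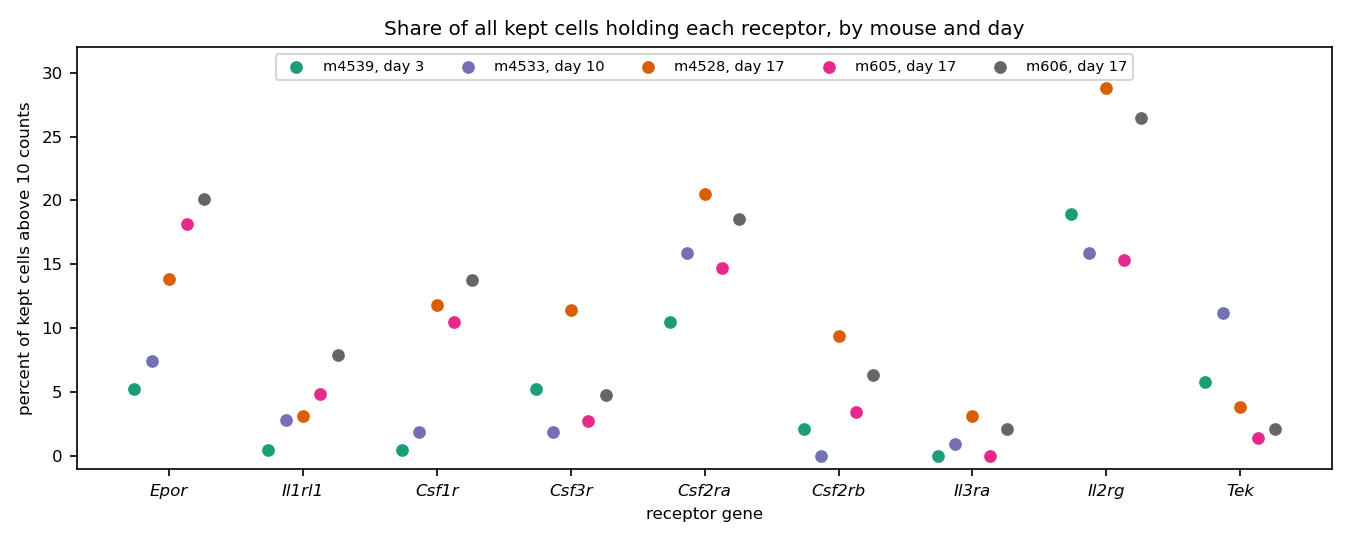
Percent of all kept cells of each mouse with more than 10 counts of each receptor, 1 point per mouse in the order day 3, day 10 and 3 mice of day 17. Epor, Il1rl1, Csf1r and Csf2rb are higher in all 3 day 17 mice than in both earlier mice, and Tek is lower.

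The mix of lineages changed with the day as well. The HSC gate held 179 of 190 cells at day 3, 75 of 107 at day 10 and 98 of 288, 18 of 143 and 39 of 189 at day 17. Within the HSC gate, edgeR's slope over day, with the deposited table as a term, called 0 of 13432 genes (206 at an unadjusted p under 0.05; DESeq2 called 7 and no member). Over all kept cells it called 0 of 16740 genes (1473 at an unadjusted p under 0.05; DESeq2 called 463 and 1 member). The slope of Csf1r in all kept cells was 4.90 ± 0.64 (SE) on the log2 scale per 14 days (adjusted p = 0.271, edgeR), that of Epor -0.10 ± 0.44 and that of Tek -1.36 ± 1.42. The deposited table of m605 and m606 holds day 17 alone. With the table term, the size of each slope therefore rests on m4539, m4533 and m4528, 1 mouse per day. The slope of Csf1r was 4.89 without m605 and 4.90 without m606, but 5.54 without m4528 and 4.14 without m4539. Those of Epor and Tek changed sign: the slope of Tek was 1.62 without m4528 and -4.50 without m4539. That of Epor was 0.72 without m4539, and 0.33 without the table term. Without m4528, the slopes extend the step from day 3 to day 10. In the HSC gate the slope of Tek was -0.91 ± 2.19 and that of Epor -1.02 ± 1.61 (adjusted p of 1 for both, edgeR), and that of Tek was 2.94 without m4528. At day 3, 513 of the 1491 Epor counts of m4539 were in its 2 erythroid-gated cells.

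Cells usually held few of the receptors. Of 1010 cells, 461 held none, 334 held 1, 144 held 2, 60 held 3, 10 held 4 and 1 held 5. At least 2 were held by 52.4% of neutrophil cells, 44.7% of monocyte or dendritic cells, 33.3% of erythroid cells, 32.1% of basophil or mast cells, 13.8% of megakaryocyte cells and 8.22% of HSC-gated cells. Depth moved with this count: the median total was 267731 counts in cells with at least 2 and 110805 in cells with none, and its part in these shares was not tested.

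Of the 36 possible pairs, 33 were found in at least 1 cell. Epor and Il1rl1 were held together by 27 cells, 26 of them erythroid, which is 62.8% of Il1rl1 cells and 19.6% of Epor cells. Il1rl1 was more frequent in cells with Epor than in cells without it in 4 of 4 mice, by 15.4 ± 6.1 percentage points (SD; exact sign permutation p = 0.125, the smallest that 4 mice allow; 0.583 adjusted over the 28 pairs tested). Within the erythroid gate 34.2% of cells with Epor and 16.1% of those without held Il1rl1, and after thinning 30.8% and 18.0%. By mouse, the thinned shares with and without Epor were 25% and 23.1% in m4528, 33.3% and 4.76% in m605, and 29.6% and 26.7% in m606. The thinned difference was thus large in m605 and small in m4528 and m606. Csf1r and Csf2rb were held together by 21 cells, 14 of them monocyte or dendritic. Over all gates, Csf2rb was more frequent with Csf1r in 3 of 3 mice, by 16.6 ± 4.8 points (SD). The exact sign permutation p was 0.25, the smallest that 3 mice allow (adjusted p = 0.583). Within the monocyte or dendritic gate 22.6% of cells with Csf1r and 12.5% of those without held Csf2rb, but in m4528 both shares were 27.3%. In the neutrophil gate the shares were 20% and 15.6%, and in m4528 14.3% and 19.0%. Thinned with the threshold of 10 kept, 2 cells held both, and the difference was 0.40 ± 1.42 points (SD), positive in 1 of 2 mice. No pair passed.

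Csf2ra and Csf2rb, both needed for the granulocyte-macrophage colony-stimulating factor receptor, were held together by 20 cells (35.7% of Csf2rb cells and 11.6% of Csf2ra cells), 9 neutrophil and 9 monocyte or dendritic. The difference was 3.54 ± 6.77 points and was positive in 2 of 5 mice (exact p = 0.5; adjusted p = 0.778). Il3ra and Csf2rb, which can form an interleukin-3 receptor, were held together by 3 cells. Csf2rb2, the nearby copy of Csf2rb, was not among the pairs read. Epor was held together with Csf3r in 1 cell, Csf1r in 2, Csf2rb in 2 and Csf2ra in 23. It was held by 13.4% of Csf2ra cells and 13.7% of the others. Csf3r was less frequent in cells with Epor in 4 of 4 mice, by 6.33 ± 2.93 points (SD; exact p = 0.125; adjusted p = 0.583). Csf1r and Csf3r, the monocyte and neutrophil receptors, were held together by 12 cells, 6 in the monocyte or dendritic gate and 3 in the neutrophil gate. The pairs Csf1r and Tek, Csf2rb and Tek, and Il1rl1 and Il3ra were found in no cell, although Il3ra and Il1rl1 were held by only 15 and 43 cells.

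**Figure D4:**
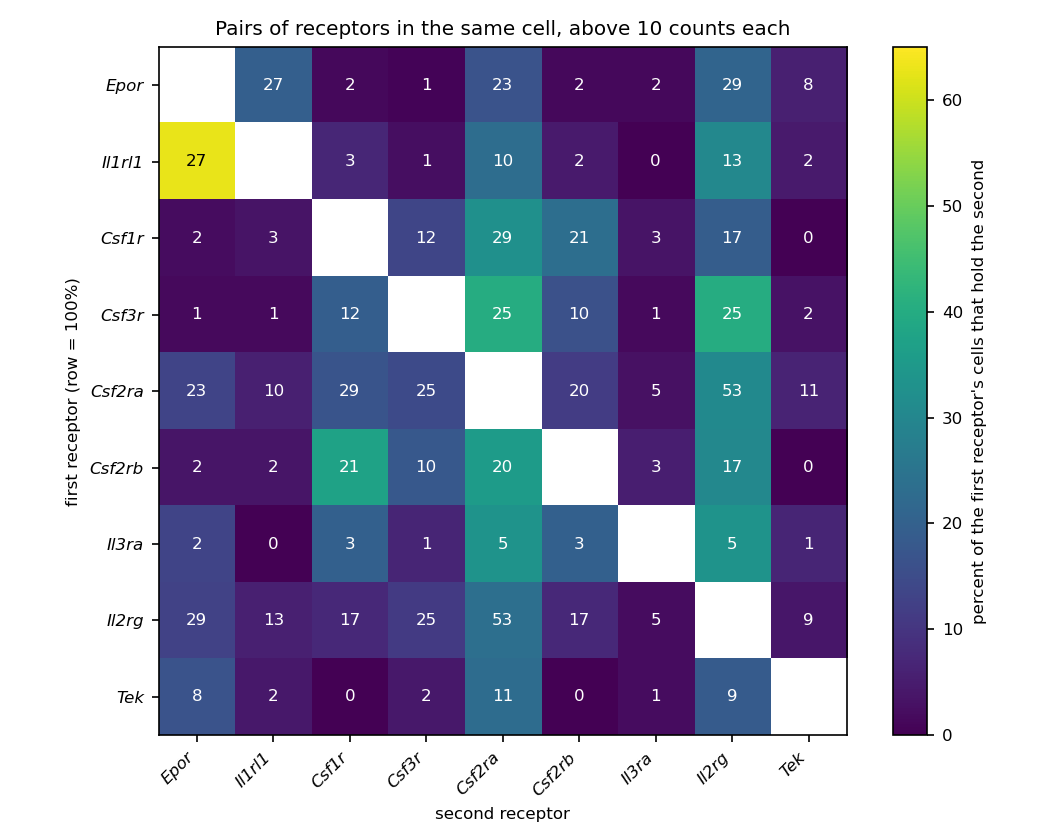
Number of cells that held both receptors of a pair (figures in the squares) and the share they make of the cells that held the first receptor (colour, percent). The brightest square is Epor among Il1rl1 cells (27 of 43 cells, 62.8%).

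Across the 20 sums of a mouse and a lineage, the genes with the level most like each member were drawn from 8227 genes, as a description of sums that share mice and depth. Epor was most like Gata1, the erythroid and megakaryocyte transcription factor (Pearson r = 0.924 of log2(CPM + 1)), Mfsd2b (0.924) and Atp8a1 (0.890). Csf1r was most like Ly86 (0.982), which is a marker of the monocyte or dendritic gate, Tifab (0.968) and I830127L07RIK (0.963). Il1rl1 was most like 1700006J14Rik (0.899), Atp1b2 (0.879) and Klf1 (0.845), the last a marker of the erythroid gate. Tek was most like Gypc (0.893), Art4 (0.889) and Eya2 (0.873). Csf2rb was most like Cd53 (0.895), Ly6e (0.878) and Rab44 (0.877), and Csf3r like DSCR3 (0.875), Mgst1 (0.846) and Kcnip3 (0.843). Il2rg was most like Fahd2a (0.854), Abcb8 (0.847) and Tgif1 (0.844), Csf2ra like Fgl2 (0.841), Impa2 (0.827) and Pak1 (0.823), and Il3ra like Bex6 (0.824), Trf (0.817) and Pkib (0.816).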

How the data were processed

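Per the labels' protocols, single Lin- Tom+ cells were sorted into 96-well plates and sequenced with a modified Smart-seq2 method that reads the 3′ end of polyadenylated RNA. The authors deposited a pair of tables of whole-number counts per gene and barcode, mapped to GRCm38 per the submitters' processing notes. Not given in the sources used here are the aligner, the counter and the use of strand. Values were used as deposited, over the 22842 genes both tables share, and 0 columns of per-sample values were left out.

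Barcodes with at least 500 genes and 10000 counts were kept, and CPM is counts over the summed counts of all shared genes. Counts were summed per mouse and lineage where at least 10 cells were present (20 sums, 15118 genes after edgeR's filter) and tested with edgeR 4.0.16 (quasi-likelihood, TMM, mouse as a block; R 4.3.3), with Benjamini-Hochberg adjustment over all genes tested and a threshold of 0.05. The mixed plate of m605 and m606 entered the pooled shares but no fit. The slope over day used whole mice or their HSC, with the table as a term, since the tables hold different days and mice. With that term, m605 and m606 do not set the size of a slope. DESeq2 1.42.0, scanpy 1.11.5 (Leiden clusters) and scipy 1.17.1 (exact tests, exact Clopper-Pearson intervals at 95%) served the rest; the fits were tested on simulated data. Alternatives covered the normalization, the filter, the gates, the depth, the block, the threshold and each mouse left out; thinning with a threshold of 2 counts and leaving out mice for shares were chosen after seeing the data.

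The blocks pair lineages of the same mouse, named in the labels. The members and lists were chosen with earlier results of these data known. All 9 members are named. From each list of other receptors, signalling genes and ligands, up to 4 genes per comparison with the largest absolute log2 change among those passing may be named (some are not reported here), and 3 most similar genes per member with at least 50 CPM in 1 sum. Promoter windows come from RefSeq (GRCm38.p6), gene positions from GENCODE vM21. The windows of Csf1r and Csf2rb were not read, so the motif counts over members leave out both, including the most strongly called member, Csf1r.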

Additional observations from a re-analysis of the deposited data

Results flagged for a closer look

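Csf2ra was held by 2.08% of the cells of plate 1 of m605, the lowest of the 9 day 17 plates, where the next lowest plate had 17.9%. Dixon's test picked out this plate among 18 tests of the 9 members, of which chance picks about 1 in 20. The low share was not particular to Csf2ra. The same plate was lowest, or tied for lowest, of the day 17 plates for every other member, with Epor, Csf1r and Il2rg at 6.25% each. It gave 48 of the 143 cells of m605.

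Csf2ra was 0.55 higher on the log2 scale in megakaryocyte cells than in HSC in the day 10 mouse and lower in each day 17 mouse, with a mean of -0.91. Il1rl1 went the other way, with -0.41 in the day 10 mouse and 3.22 in m606 at day 17, and rests on few counts. The other day 17 mice had at most 3 counts of it in both gates and gave no value. Neither difference between days was tested, and day 10 has 1 mouse.

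The 8347 barcodes that were not kept held 734 counts of the 9 members, which is 1.26% of all their counts, and 3 of these barcodes had more than 10 counts of a member (2 of Csf2ra and 1 of Csf3r).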

How the results depend on the processing

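The members' log2 changes with an unadjusted p under 0.05, or with a value printed above, were recomputed (lineage differences and day slopes). Under another setting, 278 values kept their direction and side of the threshold, 39 passed newly, 1 no longer passed and 2 turned round; with a mouse left out, 163 kept both, 2 passed newly, 6 no longer passed and 3 turned round. Under another setting, Csf3r in basophil or mast cells against HSC, -9.83 with basophil libraries at 0 counts, was 0.96 with Leiden clusters, and the day slope of Epor over all kept cells was 0.33 without the table term. With a mouse left out, the slopes over all kept cells ran from -1.07 to 0.72 for Epor and from -4.50 to 1.62 for Tek, and in the HSC gate from -4.79 to 2.94 for Tek.
Members called numbered 2 (erythroid against HSC), 1 (neutrophil against HSC), 1 (monocyte or dendritic against HSC) and 0 in the other 5 lineage comparisons. DESeq2 called 4 members for erythroid, 2 for neutrophil, 5 for monocyte or dendritic, 3 for megakaryocyte and 4 for basophil or mast cell against HSC, 2 for erythroid against megakaryocyte, 1 for monocyte or dendritic and 3 for basophil or mast cell against neutrophil. With the mixed plate 4 members were called for monocyte or dendritic and 2 for megakaryocyte against HSC, and 1 each for erythroid against megakaryocyte and monocyte or dendritic against neutrophil. Leiden clusters gave 1 for basophil or mast cell against HSC and 1 for erythroid against megakaryocyte, at least 4 markers gave 1 for megakaryocyte and 2 for neutrophil, and at least 2 markers 2 for monocyte or dendritic against HSC.
Genes called numbered 1764 (erythroid), 548 (megakaryocyte), 891 (neutrophil), 1320 (monocyte or dendritic) and 316 (basophil or mast cell) against HSC, 654 for erythroid against megakaryocyte, and 61 (monocyte or dendritic) and 34 (basophil or mast cell) against neutrophil. In the same order DESeq2 gave 3174, 1760, 2009, 2614, 1882, 1632, 460 and 777, and the mixed plate 2944, 1047, 1704, 2152, 566, 1187, 154 and 105. For basophil or mast cells against HSC, no filter gave 194 and Leiden clusters 495, and against neutrophil RLE factors gave 20 and at least 50000 counts 15. At least 4 markers gave 297 (megakaryocyte against HSC) and 37 (monocyte or dendritic against neutrophil), and day 17 mice alone 178 (megakaryocyte against HSC). The causes were not tested.
With no replicate block for the mouse, 3 members were called for monocyte or dendritic against HSC, and genes called numbered 281 for megakaryocyte and 577 for neutrophil against HSC, 434 for erythroid against megakaryocyte, and 14 and 0 for monocyte or dendritic and basophil or mast cell against neutrophil. For the comparison of days, no paired analysis was possible because the plate numbers that days share belong to different mice.
Leaving out 1 mouse at a time gave 0 to 3 members for erythroid against HSC, 0 to 1 for erythroid against megakaryocyte and neutrophil against HSC, 1 for monocyte or dendritic and 0 in the rest. Genes called ran 293 to 1775, 0 to 559, 48 to 900, 280 to 1328, 258 to 328, 112 to 658, 2 to 62 and 8 to 40 in the order above. For day, slopes called 0 genes over all kept cells, 0 to 1 in HSC, and 5 to 8 members did not overlap. Fewer mice overlap less easily, and the share of all genes is not given for these sets. No excess of members is therefore read from the 5 to 8.
The day slope called 0 genes, but 463 and 1 member with DESeq2 and 18 without the table term, and in HSC 7 with DESeq2. Of members by day, 5 did not overlap, 2 with above 50 counts, 2 thinned with the threshold of 10 kept and 3 with 500 genes alone. The share of all genes is given for the first setting only (43.9% higher and 6.97% lower). The other counts therefore cannot be set against all genes. Day 17 minus earlier shares turned to -3.04 points for Csf2ra, -0.651 for Csf3r and -4.19 for Il2rg above 50 counts, and to -0.457 for Csf3r and -0.835 for Il2rg thinned in that way. Pairs higher in every mouse numbered 2 of 28 tested, 0 of 8 thinned with the threshold of 10 kept and 6 of 36 above 0 counts.
Not run: basophil or mast cells with at least 4 markers, without m4528 or without m606, and neutrophil under Leiden clusters, with too few sums. Days 3 and 10 have 1 mouse each, which limits every comparison of days.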

Other observations

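In the HSC gate, the 16 cells with Epor held Gata2 in 68.8% of cases and the 410 cells without it in 42.4%. They held 1.63 megakaryocyte markers on average and the cells without it 0.520, at median depths of 227410 and 116368 counts. After thinning, the shares with Gata2 were 68.8% with Epor and 44.6% without. Mki67 was held by 18.8% of HSC-gated cells with Epor and 4.63% of those without, and after thinning by 18.8% and 5.15%. These values were chosen after they were seen, describe 16 cells and were not tested. Whether the share of HSC-gated cells with Epor lies above background was not tested either.

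Erythroid cells with Il1rl1 held Mki67 in 85.7% of cases and those without it in 62.9%, and in each of the 3 day 17 mice the share was higher with Il1rl1, also after thinning (77.4% with and 61.1% without over all mice). The markers of endothelial or stromal cells were held by 18.2% of erythroid cells, led by Plvap, and by 2.58% of HSC-gated cells.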
